A study of Homo sapiens with 6 samples.

Results

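Keratins are the intermediate filament proteins of epithelial cells, and 10 of their genes were followed here in hTert-HME1, a human mammary epithelial line immortalised with telomerase. The 10 were picked by symbol from 57820 gene rows: KRT5 and KRT14 as basal keratins, KRT6A, KRT6B, KRT16 and KRT17 as activated keratins, and KRT7, KRT8, KRT18 and KRT19 as simple keratins. Of these, 9 were abundant enough to be tested, among 14763 genes in all, and KRT19 was not. Cells had been transfected with siRNA against BRCA2, a gene of homologous recombination repair, or with control siRNA, and cultured in mammary epithelial growth medium with or without epidermal growth factor (EGF). The 6 mRNA libraries were 2 labelled BRCA2 siRNA, grown EGF-free (passage 6, replicates A and B), 1 labelled BRCA2 siRNA, grown with EGF and called EGF-fed below (passage 4), and 3 labelled control siRNA with EGF (A and B at passage 6, and 1 at passage 4). Control siRNA cells without EGF were not analysed here, so in the first comparison siRNA and medium differ together and cannot be told apart. All libraries come from 1 cell line, and the replicate letters do not say whether cultures were separate, so the p-values reflect only how much these libraries vary, possibly for technical reasons.

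A keratin filament is built from pairs of 1 type II and 1 type I protein. KRT5 with KRT14 fills the basal cells of stratified and glandular epithelia, KRT8 with KRT18 fills simple and luminal cells, and KRT6, KRT16 and KRT17 are the keratins that keratinocytes make after wounding or in hyperproliferation. In mammary ducts the basal pair marks the outer, myoepithelial layer and KRT7, KRT8, KRT18 and KRT19 the luminal layer. In cultured epidermal keratinocytes, EGF is known to induce KRT6 and KRT16.

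The values are the authors' normalised log2 expression values, so a difference of 1 is a doubling; depth per library is unknown. BRCA2 itself was at 11.15 and 10.89 in the EGF-free libraries labelled BRCA2 siRNA, at 10.88 in the EGF-fed library labelled BRCA2 siRNA, and at 11.25, 11.24 and 10.19 in controls A, B and passage 4. At passage 4 it was therefore higher in the library labelled BRCA2 siRNA, against its label. At passage 6 both values under BRCA2 siRNA lay below both controls. In the passage-matched fit described below, this difference was -0.23 and was not called (limma adjusted p = 0.23). Against all 3 controls the difference was 0.12 (limma adjusted p = 0.881). EGFR, the EGF receptor, was at 15.67 and 16.25, then 15.15, then 15.34, 15.39 and 15.82 in the same libraries. Controls A and B lay closer together than other libraries: the SD of their difference over tested genes was 0.119, against 0.308 between the libraries without EGF. Basal mammary markers were all detected (10 of 10 tested), and 5 of 9 luminal markers were tested, among them MUC1, GATA3 and ESR1, while EPCAM, ELF3, KIT and ELF5 were below the filter. MUC1 rose in the passage-matched fit (difference 0.91, limma adjusted p = 0.0374), where 3.56% of all genes were called higher. The luminal list as a whole did not move with it: of the 5 tested, 2 differences lay above 0 and 3 below, with a median of -0.17. Because this is bulk RNA, fewer cells of a type and less RNA per cell cannot be told apart.

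Of the 10 genes, KRT5 and KRT8 had a promoter in the RefSeq table (GRCh38.p14). Their 250 bases before the transcription start are shown because no other keratin of the 10 had one, and they belong to a basal and a simple keratin. KRT8 does not stand for the simple class, since in the passage-matched fit KRT18 was called lower and KRT8 was not called. Whether the starts in that table are the ones used in these cells was not tested. Both lie on the minus strand of chromosome 12, the KRT5 stretch at chr12:52520395-52520644 and the KRT8 stretch at chr12:52926470-52926719. Capitals mark the hexamer ATAAAA, which resembles a TATA box.
KRT5 promoter: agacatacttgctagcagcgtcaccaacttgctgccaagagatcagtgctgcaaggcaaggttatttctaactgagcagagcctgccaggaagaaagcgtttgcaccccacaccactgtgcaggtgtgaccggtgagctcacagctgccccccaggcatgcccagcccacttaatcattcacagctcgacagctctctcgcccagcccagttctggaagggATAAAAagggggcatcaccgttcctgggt
KRT8 promoter: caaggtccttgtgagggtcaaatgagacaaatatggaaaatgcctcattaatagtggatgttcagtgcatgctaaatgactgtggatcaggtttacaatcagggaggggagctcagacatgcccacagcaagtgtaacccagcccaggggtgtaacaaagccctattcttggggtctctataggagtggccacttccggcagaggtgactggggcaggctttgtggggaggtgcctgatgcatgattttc
The ATAAAA lies 29 to 24 bases before the start of KRT5 and is absent from the KRT8 window. On either strand it occurred in 14.8% of 35116 RefSeq promoter windows of the same length. The letters of an E-box (CANNTG), found in 61.8% of windows, occurred at -130 and -109 in KRT5 and at -232 and -122 in KRT8. KRT5 also held TGACNNNGC, the core of an antioxidant response element, on the opposite strand at -236 to -228 (10.9% of windows). Neither window held TGANTCA (AP-1, 6.57% of windows), GGGCGG (GC box, 42.6%), CCAAT (32.0%), GCCNNNGGC (AP-2, 19.8%) or TATAAA (10.7%).

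The levels of the genes against each other can be read only per length, here as the log2 value per kilobase of the principal reference transcript. Averaged over the 6 libraries, KRT14 stood highest at 16.21 and KRT5 next at 15.83, followed by KRT7 at 14.13 and KRT6A at 13.77. KRT17 followed at 12.23, with KRT18 at 10.18, KRT8 at 9.74, KRT16 at 9.37 and KRT6B at 8.41. This order turned between libraries for KRT16, which stood above KRT18 and KRT8 in the EGF-free libraries (KRT16 at 10.50 and 10.34, KRT18 at 9.77 and 9.63, KRT8 at 9.70 and 9.61 per kilobase) and below both in the other 4. KRT6A also stood above KRT7 in EGF-free replicate A (14.25 against 14.13). In the EGF-fed library labelled BRCA2 siRNA, KRT6B stood just above KRT16 (8.61 against 8.60). KRT19, the smallest keratin and a luminal marker, was last at 0.56. The ranges over libraries did not overlap between KRT5 and KRT7, between KRT17 and KRT18, between KRT6A (13.46 to 14.25) and KRT17 (11.41 to 12.97), or between KRT6B (8.0 to 9.02) and KRT19 (0.43 to 0.64). They overlapped between the neighbours KRT14 and KRT5, KRT7 and KRT6A, KRT18 and KRT8, KRT8 and KRT16, and KRT16 and KRT6B. The deposited value of KRT19, not per length, lay between 0.91 and 1.12 in every library.

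The 2 basal keratins made up 81.4% and 79.5% of the summed per-length level of the 10 genes in the EGF-free libraries labelled BRCA2 siRNA. Their share was 73.6% in the EGF-fed library labelled BRCA2 siRNA and 76.4%, 76.4% and 73.0% in controls A, B and passage 4. The simple keratins made up 7.44% and 8.81% without EGF, 12.8% under BRCA2 siRNA with EGF, and 13.0%, 13.7% and 14.7% in the controls. For both classes the libraries without EGF stood outside the range of the other 4. For the activated keratins they did not, with 11.1% and 11.7% without EGF, 13.5% under BRCA2 siRNA with EGF, and 10.5%, 9.89% and 12.3% in the controls. Together the 10 genes took 1.73% and 1.46% of all normalised linear values (not per length) without EGF, 0.953% under BRCA2 siRNA with EGF, and 0.976%, 0.955% and 0.945% in the controls. Shares are relative, so a lower share of a class does not show that its level fell. KRT7 alone held 6.79% and 8.1% without EGF, 11.4% under BRCA2 siRNA with EGF, and 11.5%, 12.2% and 13.1% in the controls. Its own values without EGF nevertheless overlapped with the controls, as given below. These shares are descriptions, with no test.

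**Figure D1:**
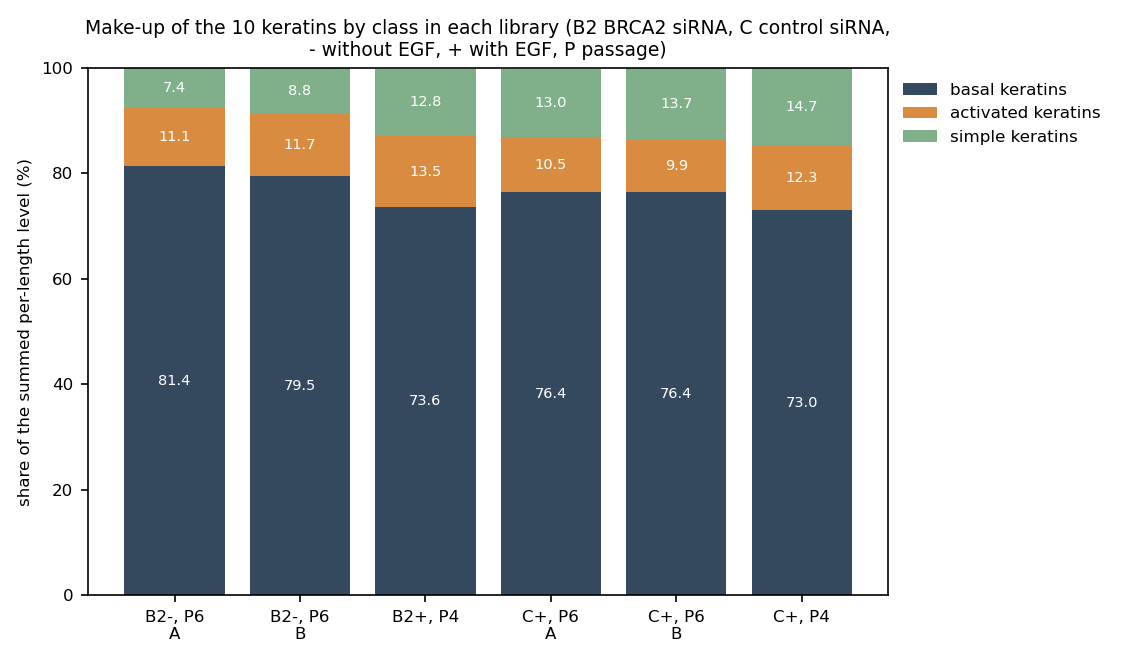
Share of the summed per-length level of the 10 keratins (vertical axis, percent) held by basal, activated and simple keratins in each library (horizontal axis, 1 bar per library). Simple keratins are at 7.44% and 8.81% in the EGF-free libraries labelled BRCA2 siRNA and at 12.8% to 14.7% in the other 4. Shares are relative, so a lower share does not show a lower level.

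Without EGF and under BRCA2 siRNA, the basal and activated keratins all lay above the controls, the simple keratin KRT18 lay below them, and KRT7 and KRT8 overlapped with them. Over all tested genes, 18.1% lay above the controls in this way and 23.9% below, so 42.0% showed no overlap in one direction or the other. Only KRT16 passed the test when all 3 controls were used, where 0.853% of all genes were called higher and 0.135% lower. When the 2 controls of the same passage were used, 5 genes were called higher (KRT5, KRT14, KRT6B, KRT16 and KRT17) and KRT18 lower. That fit called 3.56% of all genes higher and 2.88% lower.

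KRT16, the type I partner of KRT6A, is barely made in resting epidermis and appears within hours of wounding. It was at 11.22 and 11.06 in the EGF-free libraries labelled BRCA2 siRNA, at 9.32 in the EGF-fed library labelled BRCA2 siRNA, and at 9.65, 9.56 and 9.71 in the controls. Both libraries without EGF stood above all 4 others. The groups averaged 11.14 ± 0.11 without EGF (SD, n = 2) and 9.64 ± 0.08 in the controls (SD, n = 3). KRT16 thus rose by 1.5 ± 0.12 (SE), 2.83-fold, with an adjusted p of 0.0121 (limma, Benjamini-Hochberg over 14763 genes). It was the only keratin of 9 past the threshold in this fit, in which 0.853% of all genes were called higher and 0.135% lower. With passage matched the difference was 1.54 ± 0.091 (limma adjusted p = 0.00783), in a fit that called 3.56% of genes higher and 2.88% lower (6.44% in all). In the comparison with all 3 controls, leaving out either library without EGF ended the call (limma adjusted p = 0.189 without A and 0.24 without B), as did leaving out control A (0.0564) or B (0.0509) and averaging these 2 (0.0526). The difference then ran from 1.42 to 1.58. KRT16 shares 22.0% of its 50-base stretches with other genes, among them KRT16P3 (13.0%) and KRT14 (11.3%). KRT14 in turn shares 23.8% with other genes, and its average back-transformed value was 131000, against 1260 for KRT16. The part of shared reads in the KRT16 values was not tested.

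KRT17, a type I keratin of epidermal appendages and myoepithelial cells, had the largest passage difference of the 9 tested keratins. It was at 13.69 and 13.70 in the EGF-free libraries labelled BRCA2 siRNA (passage 6), at 12.48 in the EGF-fed library labelled BRCA2 siRNA (passage 4), and at 12.22, 12.13 and 13.47 in controls A, B and passage 4. The control at passage 4 thus lay near the level of the libraries without EGF, 1.3 above the passage 6 controls. Against all 3 controls KRT17 differed by 1.09 ± 0.42 and was not called (limma adjusted p = 0.273). Against the passage 6 controls it rose by 1.52 ± 0.075, 2.86-fold (limma adjusted p = 0.00753). It shares 16% of its 50-base stretches with other genes, among them KRT17P1 (9.4%), KRT17P2 (8.7%) and KRT17P3 (7.9%). The pseudogene row KRT17P3 had values of 5.55 and 5.66 without EGF, 4.51 under BRCA2 siRNA with EGF, and 4.6, 4.38 and 5.61 in the controls. As for KRT17, the EGF-free libraries and the passage 4 control held the 3 highest values, and the part of shared reads was not tested.

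**Figure D2:**
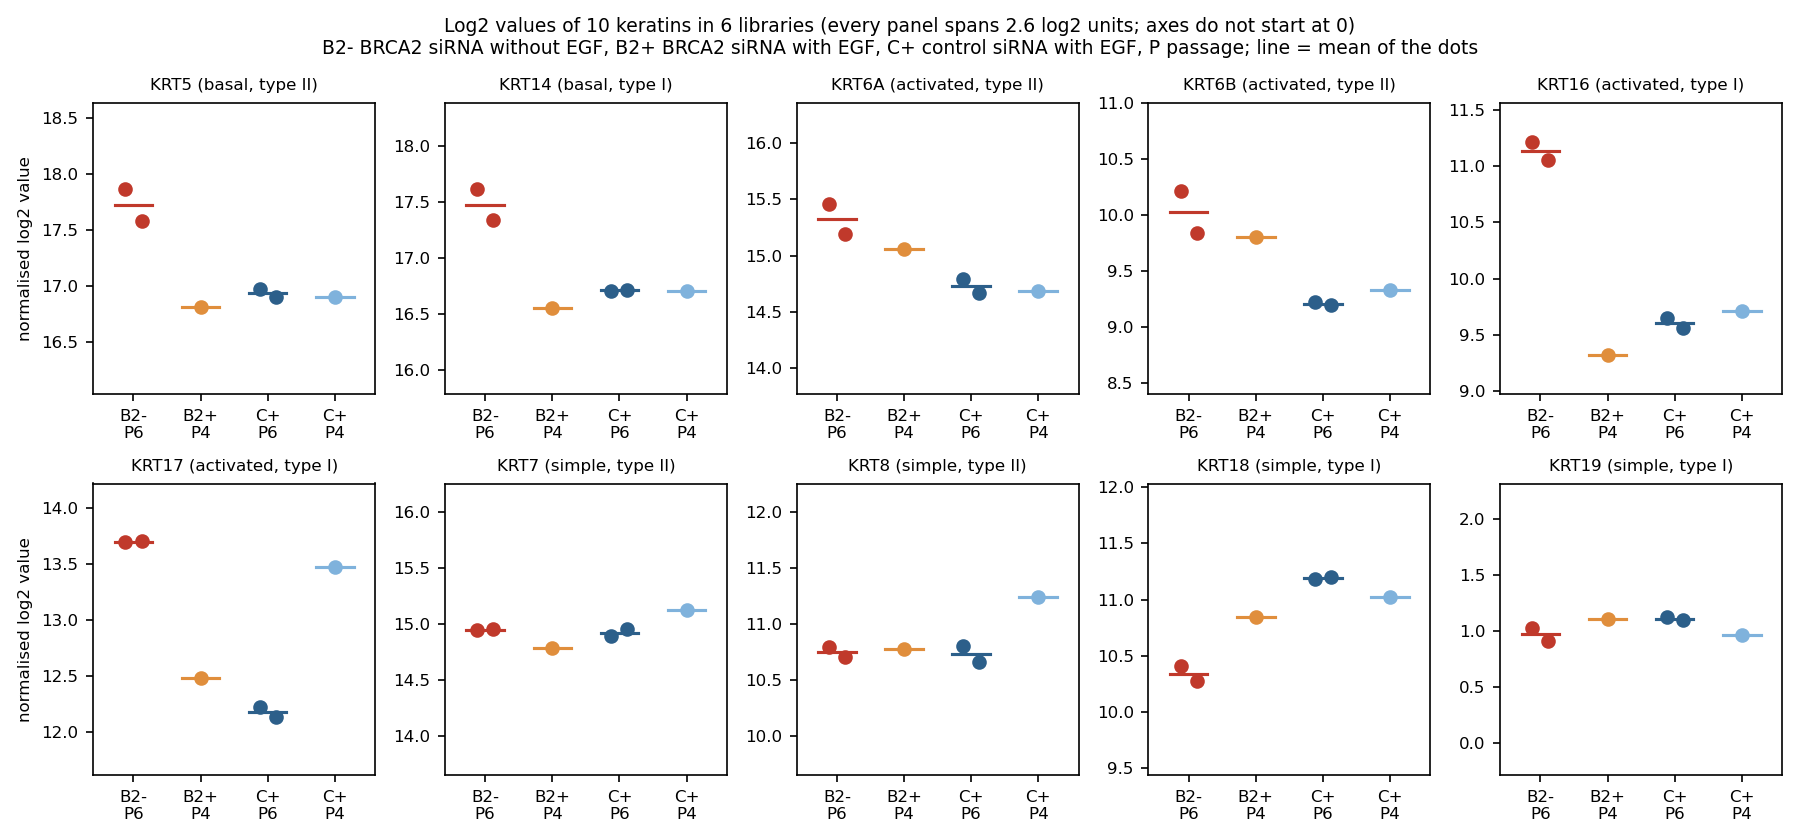
Normalised log2 value (vertical axis) of each keratin in each library; dots are libraries, lines are means, columns are groups by siRNA, EGF and passage, and each panel spans the same number of log2 units. KRT16 is at 11.06 and 11.22 in the EGF-free libraries labelled BRCA2 siRNA and at 9.71 or below elsewhere, and KRT17 is at 13.47 in the passage 4 control against 12.22 and 12.13 in the passage 6 controls.

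KRT5, the type II keratin of basal cells, was at 17.86 and 17.58 in the EGF-free libraries labelled BRCA2 siRNA, at 16.81 in the EGF-fed library labelled BRCA2 siRNA, and at 16.97, 16.90 and 16.90 in the controls. KRT14, its type I partner, was at 17.62 and 17.34 without EGF, at 16.56 under BRCA2 siRNA with EGF, and at 16.71, 16.72 and 16.71 in the controls. For both genes the libraries without EGF stood above all others, while the EGF-fed library lay below the controls. KRT5 differed from all 3 controls by 0.80 ± 0.15 and KRT14 by 0.76 ± 0.14, and neither passed the threshold (limma adjusted p = 0.0865 and 0.0906). Passage-matched, KRT5 rose by 0.79 ± 0.11 (limma adjusted p = 0.0328) and KRT14 by 0.76 ± 0.11 (0.0332), 1.72-fold and 1.70-fold. Replicate A was above B by similar amounts in both genes, and the difference between the 2 genes stayed between 0.18 and 0.26 in all 6 libraries.

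KRT6A and KRT6B are the type II keratins induced with KRT16 and KRT17, and mutations in any of the 4 cause pachyonychia congenita. KRT6A was at 15.46 and 15.19 in the EGF-free libraries labelled BRCA2 siRNA, at 15.06 in the EGF-fed library labelled BRCA2 siRNA, and at 14.79, 14.67 and 14.68 in the controls. KRT6B was at 10.21 and 9.84 without EGF, at 9.80 under BRCA2 siRNA with EGF, and at 9.22, 9.19 and 9.33 in the controls. Unlike the other keratins so far, both had a value in the EGF-fed library labelled BRCA2 siRNA that was above all 3 controls. Against all controls KRT6A differed by 0.62 ± 0.14 and KRT6B by 0.78 ± 0.15, and neither was called (limma adjusted p = 0.133 and 0.101). With passage matched, KRT6B rose by 0.82 ± 0.14 (limma adjusted p = 0.0452) and KRT6A, at 0.60 ± 0.12, stayed short of the threshold (0.054). KRT6A shares 28.5% of its 50-base stretches with KRT6B and 35.2% with KRT6C, and KRT6B shares 44.8% with KRT6C. Values of these 3 genes are therefore uncertain against each other. KRT6C was at 10.61 and 10.24 without EGF, at 9.96 under BRCA2 siRNA with EGF, and at 9.81, 9.71 and 9.72 in the controls, and was not called (difference 0.68, limma adjusted p = 0.127).

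KRT18, the type I keratin of simple epithelia, went the other way. It was at 10.41 and 10.27 in the EGF-free libraries labelled BRCA2 siRNA, at 10.84 in the EGF-fed library labelled BRCA2 siRNA, and at 11.18, 11.20 and 11.02 in the controls. The libraries without EGF were the lowest, and the library under BRCA2 siRNA with EGF lay between them and the controls. Against all controls the difference was -0.79 ± 0.12, short of the threshold (limma adjusted p = 0.0583). Passage-matched, KRT18 fell by 0.85 ± 0.083 on the log2 scale (limma adjusted p = 0.0162), to 0.555 of the control level.

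Its type II partner KRT8 was at 10.79 and 10.70 in the EGF-free libraries labelled BRCA2 siRNA, at 10.77 in the EGF-fed library labelled BRCA2 siRNA, and at 10.80, 10.66 and 11.24 in the controls. KRT7, a type II keratin of ductal epithelia, was at 14.94 and 14.95 without EGF, at 14.78 under BRCA2 siRNA with EGF, and at 14.89, 14.95 and 15.12 in the controls. Both overlapped with the controls, and the passage 4 control was the highest of the 6 libraries for both. Neither was called, at -0.15 ± 0.19 for KRT8 and -0.04 ± 0.13 for KRT7 (limma adjusted p = 0.715 and 0.903). With passage matched, the differences were 0.015 ± 0.088 and 0.027 ± 0.07 (limma adjusted p = 0.919 and 0.81). KRT8 shares 32.7% and KRT18 31.8% of their 50-base stretches with other genes, against 1.0% for KRT7 and 4.0% for KRT5. Use of strand in the counting is not given, so reads of KRT7 and of its antisense gene cannot be told apart.

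**Figure D3:**
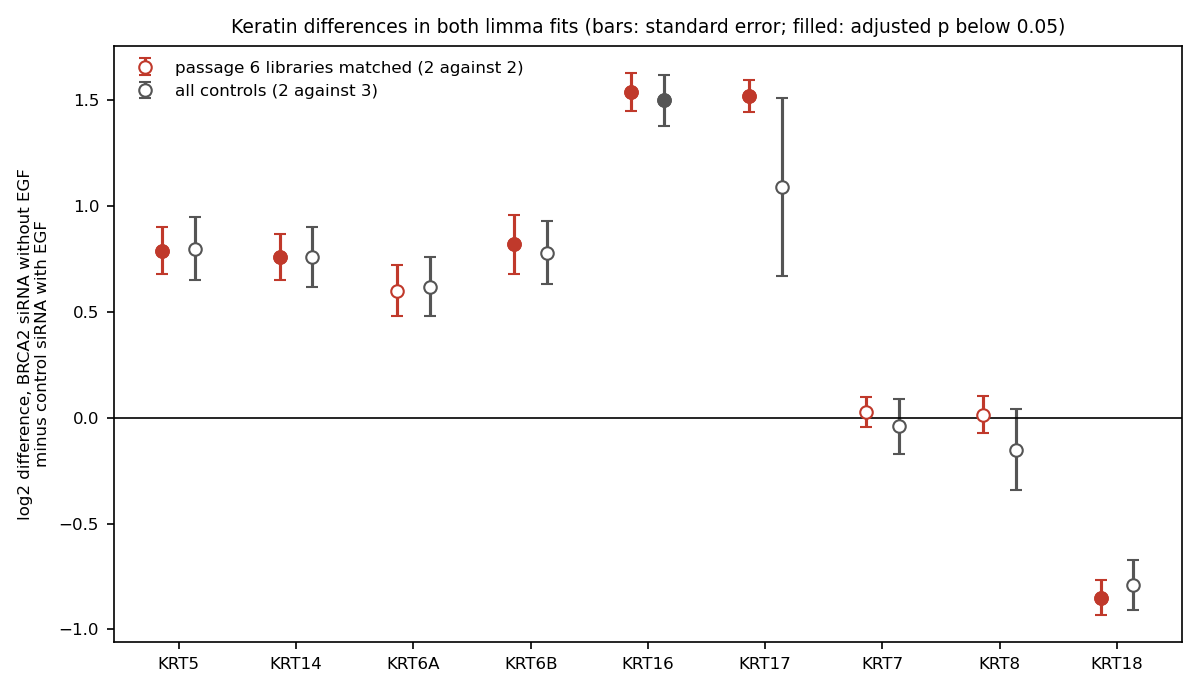
Log2 difference, EGF-free libraries labelled BRCA2 siRNA minus control siRNA with EGF (vertical axis), for the 9 tested keratins; red uses passage-matched libraries, grey all controls, bars are standard errors and filled points have an adjusted p below 0.05. Of the red points 6 are filled, of the grey points only KRT16, and KRT17 moves most between the fits, at 1.52 matched and 1.09 with all controls.

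The passage-matched calls rest on controls A and B as separate libraries. With those 2 averaged into 1, no keratin of 9 was called (46 genes by limma, 1495 at an unadjusted p below 0.05), and KRT16 and KRT17 were at an adjusted p of 0.0501 each. Without control A only KRT16 and KRT17 were called (0.0498 and 0.0481), and without control B none (0.0509 each). Left without BRCA2 siRNA replicate A or B, the matched fit called 7 keratins each time, the 6 and KRT6A, but it then called 8952 and 6972 of all genes. The sign of these 7 differences stayed the same in each of these cases.

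Seen as partners, the differences of log2 values (type II minus type I, not per length) show where pairs moved apart. KRT5 minus KRT14 was 0.24 and 0.24 in the EGF-free libraries labelled BRCA2 siRNA, 0.26 in the EGF-fed library labelled BRCA2 siRNA, and 0.26, 0.18 and 0.19 in the controls. KRT8 minus KRT18 was 0.38 and 0.43 without EGF, -0.07 under BRCA2 siRNA with EGF, and -0.38, -0.54 and 0.22 in the controls. KRT6A minus KRT16 was 4.24 and 4.13 without EGF, 5.74 under BRCA2 siRNA with EGF, and 5.14, 5.11 and 4.96 in the controls. The basal pair kept its difference between 0.18 and 0.26, whereas for KRT6A and KRT16 the libraries without EGF stood below all others and for KRT8 and KRT18 above all others. KRT6B minus KRT17 was -3.48 and -3.86 without EGF, -2.68 under BRCA2 siRNA with EGF, and -3.00, -2.94 and -4.14 in the controls, so these groups overlapped. KRT7 minus KRT19 ran from 13.67 to 14.16, with overlap.

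**Figure D4:**
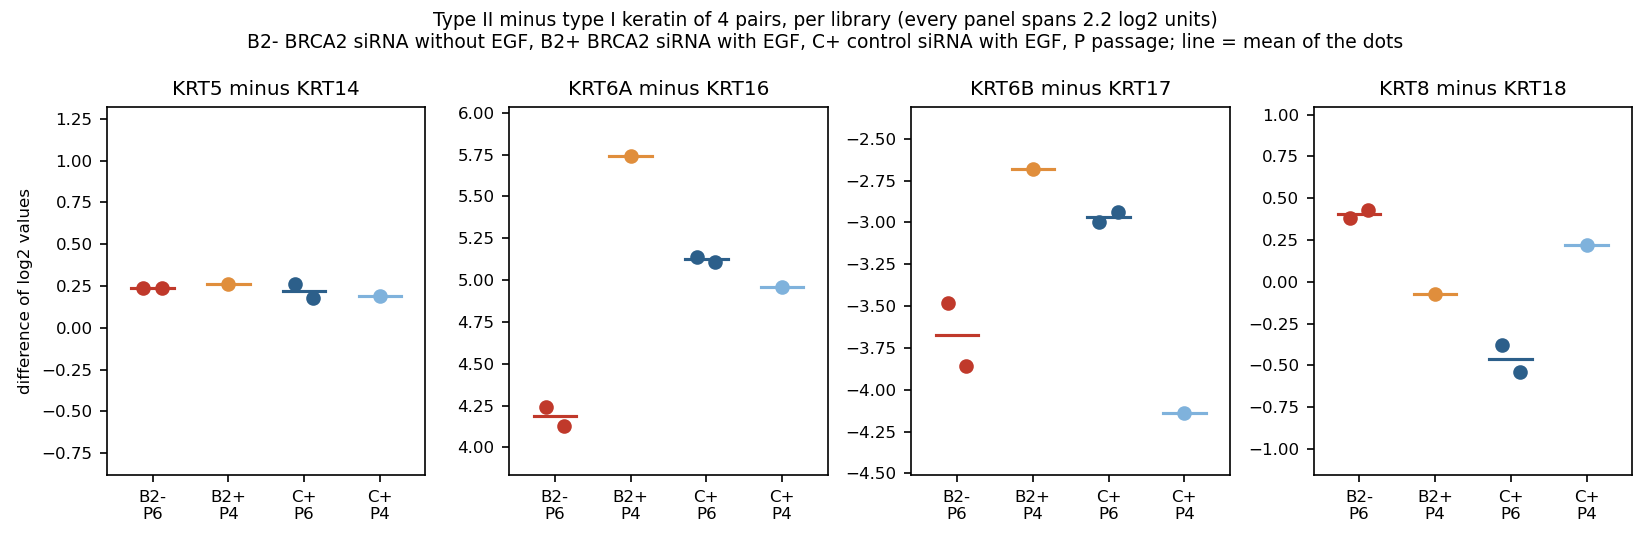
Difference of log2 values, type II minus type I keratin (vertical axis), for 4 pairs; dots are libraries, lines are means, columns are groups by siRNA, EGF and passage, and each panel spans the same number of log2 units. KRT5 minus KRT14 lies between 0.18 and 0.26 in all libraries, and KRT6A minus KRT16 is at 4.24 and 4.13 in the EGF-free libraries labelled BRCA2 siRNA against 4.96 or more elsewhere.

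With EGF in the medium of both groups, BRCA2 siRNA gave no call in any keratin, nor in any of the 14763 genes (0.0% called by limma, 412 genes at an unadjusted p below 0.05). This sets 1 library at passage 4 against 3 controls, and its spread is taken from the other groups. KRT6B and KRT6A had the highest values above the controls, 0.55 ± 0.19 and 0.35 ± 0.18, and KRT16 and KRT18 the lowest, -0.32 ± 0.15 and -0.29 ± 0.16 (limma adjusted p = 1.0 for each). Against the passage 4 control alone, KRT17 was lower by 0.99, that is 12.48 under BRCA2 siRNA against 13.47 in the control, and KRT8 by 0.47. Neither was called (difference -0.99 ± 0.11 and -0.47 ± 0.12, limma adjusted p = 0.118 and 0.148). Since BRCA2 went against the label at passage 4, these directions belong to the library so labelled.

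Within BRCA2 siRNA, the libraries without EGF (passage 6) were set against the library with EGF (passage 4), so medium and passage cannot be told apart. KRT16 rose by 1.82 ± 0.16, 3.53-fold, the only keratin called (limma adjusted p = 0.0319), where 0.176% of all genes were called higher. KRT5 and KRT14 differed by 0.91 ± 0.20 and 0.92 ± 0.19 and KRT17 by 1.21 ± 0.56 and were not called (limma adjusted p = 0.153, 0.144 and 0.352). KRT6A and KRT6B differed by 0.26 ± 0.19 and 0.23 ± 0.21, KRT18 by -0.50 ± 0.17, and KRT7 and KRT8 by 0.17 ± 0.18 and -0.024 ± 0.26. Taking off the passage difference of the controls, KRT17 (2.51 ± 0.13, limma adjusted p = 0.0255) and KRT16 (1.93 ± 0.16, 0.0326) were called, with 2.21% of all genes called higher and 1.65% lower (3.85% in all). That step assumes that passage acted alike under both siRNAs, which could not be checked. This comparison and the first share the libraries without EGF. The KRT16 call ended without either library without EGF (limma adjusted p = 0.287 without A and 0.345 without B), without control A or B (0.0875 and 0.0743), with these 2 averaged (0.0733) and with no filter on low values (0.0666).

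In control cells, passage 6 against passage 4 gave 2 keratin calls, both lower. KRT17 fell to 12.22 and 12.13 at passage 6, against 13.47 at passage 4, a difference of -1.3 ± 0.091 or 0.407-fold (limma adjusted p = 0.0231). KRT8 fell to 10.80 and 10.66 at passage 6, against 11.24 at passage 4, a difference of -0.51 ± 0.11 (limma adjusted p = 0.0406). Of all genes, 12.4% were called lower in this comparison and 7.71% higher (20.1% in all); beside these shares, 2 lower calls among 9 keratins are a description only. KRT7 differed by -0.20 ± 0.086 and KRT18 by 0.17 ± 0.10, and KRT5, KRT14, KRT6A, KRT6B and KRT16 by -0.12 to 0.049, none called. Passage 4 is 1 library, both calls ended without control A or B, and the KRT8 call also ended when libraries were scaled to equal medians (limma adjusted p = 0.0533).

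Among the 45 other keratin genes, 8 were tested, 15 were 0 in every library, and none was called without EGF against all controls (limma, 0.989% of all genes called). KRT34, a hair keratin, was at 5.96 and 6.39 in the EGF-free libraries labelled BRCA2 siRNA, at 7.75 in the EGF-fed library labelled BRCA2 siRNA, and at 6.86, 6.58 and 7.13 in the controls. KRT10, the type I keratin of suprabasal epidermis, was at 8.42 and 8.55 without EGF and at 8.43 under BRCA2 siRNA with EGF. In the controls it was at 8.38, 8.35 and 8.87. KRT1, a suprabasal keratinocyte marker, and KRT4 were below the filter and not tested, but both were highest without EGF. KRT1 was at 3.74 and 3.4 there and at 2.18 to 2.24 in all other libraries. KRT4 was at 2.32 and 1.94 without EGF and at 1.4 to 1.43 elsewhere. KRT86, also below the filter, overlapped, at 2.73 and 2.6 without EGF and 2.51 to 3.44 elsewhere. At passage 6 against passage 4, KRT10, KRT75 and KRT81 fell by 0.51, 1.17 and 1.48 on the log2 scale (limma adjusted p = 0.042, 0.038 and 0.0235), where 12.4% of all genes were called lower. All 3 calls ended without control A, without control B, with these 2 averaged and with no filter on low values (highest limma adjusted p = 0.31, 0.206 and 0.204). Of 148 keratin pseudogenes 3 were tested and 87 were 0 in every library.

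The proteins that tie keratins to desmosomes and hemidesmosomes gave 0 calls of 19 tested against all controls. In that fit 0.853% of all genes were called higher and 0.135% lower. The median difference of the 19 was 0.26, beside -0.03 over all genes. Passage-matched, 8 rose and 0 fell, where 3.56% of all genes were called higher and 2.88% lower (median 0.28 beside -0.02), among them DSP, desmoplakin, which anchors keratin filaments at desmosomes. DSP was at 16.03 and 16.07 in the EGF-free libraries labelled BRCA2 siRNA, at 14.70 in the EGF-fed library labelled BRCA2 siRNA, and at 15.02, 15.00 and 15.39 in the controls. PPL, periplakin, was at 11.86 and 12.05 without EGF, at 10.14 under BRCA2 siRNA with EGF, and at 10.83, 10.89 and 11.13 in the controls. For both genes the libraries without EGF stood highest and the library under BRCA2 siRNA with EGF lowest. Their passage-matched differences were 1.04 for DSP and 1.09 for PPL (limma adjusted p = 0.00789 and 0.0141). Of 11 other intermediate filament genes tested, none was called against all controls (median -0.27), beside the same 0.853% and 0.135% of all genes. VIM, vimentin, was the only 1 of the 11 called with passage matched (difference -0.59 on the log2 scale, limma adjusted p = 0.0273). That fit called 2.88% of all genes lower.

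Among 19 tested regulators of keratin genes, 2 rose and 2 fell against all controls, where 0.853% of all genes were called higher and 0.135% lower (median 0.05 beside -0.03 over all genes). GRHL3, a transcription factor of epidermal barrier formation, was at 7.51 and 8.02 in the EGF-free libraries labelled BRCA2 siRNA, at 5.69 in the EGF-fed library labelled BRCA2 siRNA, and at 5.76, 6.11 and 6.09 in the controls. FOSL1, an AP-1 subunit, was at 10.55 and 10.19 without EGF, at 11.74 under BRCA2 siRNA with EGF, and at 11.74, 11.76 and 11.52 in the controls. GRHL3 was highest and FOSL1 lowest without EGF, with no overlap. RARG, a retinoic acid receptor, also rose and TFAP2C, an AP-2 factor, also fell.

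Of 12 other genes of activated keratinocytes tested, 1 rose and 0 fell against all controls, beside the same 0.853% and 0.135% of all genes (median 0.06 beside -0.03). The 1 was SLPI, a secreted protease inhibitor, at 8.56 and 9.10 in the EGF-free libraries labelled BRCA2 siRNA, at 7.37 in the EGF-fed library labelled BRCA2 siRNA, and at 6.67, 6.56 and 7.11 in the controls. Without against with EGF under BRCA2 siRNA, 3 of the 12 differences lay above 0 and 9 below (median -0.76 beside -0.02 over all genes). CXCL8 was among the 9, with a difference of -3.06. With EGF in both groups, 10 of the 12 differences between BRCA2 siRNA and control lay above 0 and 2 below (median 0.78 beside -0.01). Both comparisons rest on the 1 library under BRCA2 siRNA with EGF. Of 9 suprabasal differentiation genes tested, 3 rose and 0 fell against all controls, again beside 0.853% higher and 0.135% lower of all genes (median 0.75 beside -0.03). These were the desmosomal cadherins DSG1 and DSC1, and SPRR1B, a cornified envelope precursor. DSG1 was at 6.15 and 5.78 without EGF, at 3.13 under BRCA2 siRNA with EGF, and at 3.23, 3.21 and 3.23 in the controls. All 3 passed the filter, an average back-transformed value of at least 10, only through the EGF-free libraries, because every other library lay below it. Genes as low as these that did not rise stayed untested, so this count cannot be weighed against the shares of all genes.

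By the size of deviation over the 6 libraries, the profiles nearest to KRT16 were those of FXYD3, NKPD1 and FGFR2, at root mean square differences of 0.103, 0.109 and 0.133 log2 units. FXYD3 was at 5.32 and 5.23 in the EGF-free libraries labelled BRCA2 siRNA, at 3.68 in the EGF-fed library labelled BRCA2 siRNA, and at 3.76, 3.88 and 3.84 in the controls. NKPD1, at 4.37 and 4.10 without EGF and 2.67 to 3.00 elsewhere, passed the filter only through the EGF-free libraries. Genes as low elsewhere that did not rise stayed untested and could not appear here. Nearest to KRT18 were CHPT1, MOSMO and CD70, at 0.0683, 0.075 and 0.0822. CHPT1 was at 8.84 and 8.70 without EGF, at 9.24 under BRCA2 siRNA with EGF, and at 9.46, 9.46 and 9.39 in the controls. These are descriptions over the same 6 libraries.

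Of the marker lists of other cell types, the fibroblast list separated the EGF-free libraries from all others by its summed value, though not in every gene. Of 10 fibroblast markers 8 were tested and 4 rose without EGF against all controls, where 0.853% of all genes did (COL1A1, COL3A1, FAP and DPT), with COL1A2 and PDGFRA below the filter. The summed linear value of the list was 6907 and 7088 in the EGF-free libraries labelled BRCA2 siRNA, 4373 in the EGF-fed library labelled BRCA2 siRNA, and 2248, 2621 and 2446 in the controls. Without against with EGF under BRCA2 siRNA, 6 of the 8 tested differences lay above 0 and 2 below. DCN was among the 2, at 9.03 and 9.10 without EGF, 10.11 under BRCA2 siRNA with EGF, and 8.14, 8.17 and 8.88 in the controls. Suprabasal keratinocyte markers summed to 683.8 and 614.2 without EGF, 552.7 under BRCA2 siRNA with EGF, and 498.5, 498.2 and 622.7 in the controls, with overlap. Luminal markers summed to 225.2 and 231.8, then 244.5, then 188.6, 181.6 and 206.6 in the same order of libraries, highest in the EGF-fed library. Endothelial markers summed to 592.4 and 780.8 without EGF, 373.4 under BRCA2 siRNA with EGF, and 284.9, 312.7 and 1102 in the controls, highest in the passage 4 control. Of the endothelial list 2 were tested: KDR, a VEGF receptor, fell at passage 6 against passage 4 (difference -1.96, limma adjusted p = 0.0231) and rose in the passage-matched fit (1.23, 0.0248), and TEK was not called in either. The part of these genes in the keratin differences was not tested. The defining endothelial gene CDH5 was 0 in every library and VWF was below the filter. No haematopoietic marker was tested, with PTPRC and CD14 below the filter and CD3E at 0 in every library.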

How the data were processed

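Polyadenylated RNA from 6 hTert-HME1 libraries was sequenced with a ScriptSeq kit, per the labels' protocols. The submitters' processing notes name TopHat2 2.0.11, DESeq2 and build hg19; of the counter, annotation and transformation the sources used here say nothing. What the authors deposited is a table of normalised log2 values with 57820 gene rows, from -1.98 to 19.93, of which 25986 are 0 in all libraries. Depth per library is therefore unknown and no count model was used; if the transformation shrinks low values, differences of low genes are understated. Symbols covered 89.9% of rows.

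Groups came from the labels. Values were fitted with limma 3.58.1 in R 4.3.3 (mean-variance trend, robust prior, two-sided) over all 6 libraries and 3 groups, on 14763 genes whose back-transformed values averaged at least 10. Significance was a Benjamini-Hochberg adjusted p below 0.05 over all of them. The passage-matched fit has 1 level per combination of siRNA, medium and passage, and also gives the passage comparison. A group of 1 library takes its spread from the others. The fit over 3 groups was tested on simulated data with independent noise and no passage difference. The passage-matched fit was not tested in this way. Shared 50-base stretches and lengths come from GENCODE reference transcripts of another build than the authors used. Named genes are the keratins, BRCA2, EGFR, genes past the threshold or with the largest differences in the keratin-related lists, and the 3 nearest profiles to KRT16 and KRT18; some are printed. The members and lists were chosen with earlier results of these data known. Alternatives covered scaling, filters, the prior, the replicate block, averaged controls, passage and each library left out. Replicate letters were not taken as pairs, because only 2 pairs exist and the labels do not link them.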

Additional observations from a re-analysis of the deposited data

How the results depend on the processing

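The labels do not say that replicate letters pair libraries, and same-lettered passage 6 libraries did not deviate together (correlation -0.172 over 14763 genes). For BRCA2 siRNA without EGF against control, 146 genes were called by limma with all controls. The count was 87 with no filter on low values, 94 with a mean of at least 50, 37 with controls A and B averaged, 950 with a passage term, 962 with passage 6 libraries only, and 6 with the replicate block, where KRT16 was lost (adjusted p = 0.0716). In the fit with a passage term, the replicate block called 7 keratins in place of 6, adding KRT6A (0.0246). Leaving out 1 library gave 0 (1841 and 1048 genes at an unadjusted p below 0.05) to 951. Without against with EGF under BRCA2 siRNA, the main count of 30 became 18, 13, 11 and 569 under the same first 4 changes, 56 with no trend and no robust prior, 0 with the replicate block (1008 unadjusted; KRT16 at 0.25, and 0.0992 with letters crossed), and 0 (1850 and 1229 unadjusted) to 2406 with 1 library left out. For control passage 6 against 4, 2963 calls became 0 with no filter (7341 unadjusted) and 0 with averaged controls (2770), and ran from 0 (2959 and 2675) to 9849 with 1 library left out. BRCA2 siRNA with EGF against control gave 0 calls throughout. With the letters crossed, the 3 counts were 112, 10 and 2375. The causes were not tested.

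Of 522 keratin values under alternatives, 449 kept their direction and side of the threshold, 24 gained and 26 lost a call, and 23 changed sign. Without EGF against control, KRT7 (-0.089 to 0.027 with 1 library left out) was 0.0099 with median centring, 0.078 with quantile normalisation and 0.027 without the passage 4 control, with a passage term or in passage 6 alone, and KRT8 (-0.27 to 0.015) was 0.015 in these last 3. With EGF, KRT5 was 0.052 (quantile), and without the passage 4 control KRT17 was 0.31 (lowest with 1 library left out -0.37) and KRT8 0.039 (-0.25). Under BRCA2 siRNA, KRT8 was 0.029 (median), 0.066 (quantile), 0.099 (replicate block), 0.058 (crossed), 0.023 (without replicate B, and -0.071 without A) and 0.49 (passage term). For passage, KRT5 was -0.0066 (quantile) and -0.021 (crossed), KRT14 -0.046 (quantile), -0.068 (crossed) and -0.00071 (without control B; up to 0.0078), and KRT6A -0.011 (without control A; up to 0.11). Depth is unknown, so its limit could not be computed.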
